A study of Saccharomyces cerevisiae with 46 samples.

Results

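The Hop1 SNP-ChIP libraries are described here chromosome by chromosome, in the SK1 cells under study and in the S288c spike cells mixed into the same samples. SNP-ChIP is chromatin immunoprecipitation with a spike of cells from a second strain, in which sequence differences assign each read to a strain. The members are the 4 deposited count files of replicate 2, which are the Hop1 ChIP and the input of the wild-type mix and of the *hop1-loop2* mix, out of 46 samples in the series. Each file gives reads for 16 nuclear chromosomes in each of 2 genomes, 32 rows in all, and every row was used. The series studies how the chromatin-binding region of Hop1 acts in budding yeast meiosis, by ChIP-seq, SNP-ChIP and maps of meiotic DNA double-strand breaks (DSBs).

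Both SK1 strains were MATa/MATalpha diploids that were homozygous for ho::LYS2 and lys2. They were also heterozygous at 4 further marker genes, as trp1::hisG/TRP1, his3::hisG/HIS3, leu2::hisG/LEU2 and ura3/URA3. The mutant was in addition homozygous for *hop1-loop2* at the endogenous locus. The spike was a diploid of S288c background with unmutated *HOP1*, heterozygous for marker mutations at *HIS3*, *LEU2*, *LYS2* and *URA3*, and homozygous for introduced alleles of *RME1*, *TAO3* and *MKT1* that let S288c cells enter meiosis more efficiently. The SK1 cultures were collected and crosslinked 3 h after meiotic induction. Crosslinked meiotic spike cells, whose hour is not given in the sources used here, were added before immunoprecipitation with an anti-Hop1 antibody. For each genotype 1 ChIP library and 1 input library were used, so no difference below has a replicate check and no p-value is given. The series lists further SNP-ChIP libraries of both genotypes, which were not used here. The 95% intervals cover counting error only. They treat reads as independent, which PCR copies of a molecule are not, so even counting error may be understated.

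Hop1 is the HORMAD protein of the yeast meiotic chromosome axis, the protein core along which chromatin loops are arranged in prophase. It is recruited with its partner Red1, in part through the cohesin subunit Rec8 and in part through its own chromatin-binding region, which touches the bent DNA of nucleosomes. Hop1 promotes DSB formation, directs repair to the homologous chromosome and supports synapsis. Short yeast chromosomes are known to carry more axis protein per unit length than long ones, which matters because each of them also needs a crossover.

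The *hop1-loop2* allele changes 4 neighbouring basic residues of the chromatin-binding region to alanine (R402A, K403A, K404A and K405A). The codons are shown because they are the only difference between the mutant and wild-type Hop1 compared here. In the S288C reference R64, *HOP1* (YIL072W) is a gene of 1 exon on the plus strand, chrIX:226602-228419, and encodes 605 residues. The stretch below lies in its coding sequence at chrIX:227775-227846, with the codons of residues 402 to 405 in capitals.
HOP1 loop 2 region: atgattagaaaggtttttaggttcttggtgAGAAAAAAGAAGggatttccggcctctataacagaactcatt
Reads were counted per chromosome, so the mutation itself could not be seen in these files.

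The wild-type mix gave 3875169 ChIP reads and 5549193 input reads, and the *hop1-loop2* mix gave 6547731 ChIP reads and 278247 input reads. The *hop1-loop2* input was thus the shallowest library, with 825 to 6859 spike reads per chromosome. SK1 reads per spike read in input had medians of 4.30 over 16 chromosomes in the wild-type mix and 4.39 in the *hop1-loop2* mix. Chromosome XII, which carries the ribosomal DNA, was lowest and apart from the others in both mixes, at 3.09 and 3.52. Chromosome VI was highest at 4.83 and 5.04, although in the *hop1-loop2* mix its counting interval overlapped that of III at 4.77. The last mapped DSB position on VI was 299 kb in SK1, against a length of 270 kb in the S288C reference. Chromosome III also differed, at 341 kb against 317 kb, and its input ratio was 4.34 in the wild-type mix and 4.77 in the *hop1-loop2* mix. The part of length in these ratios was not tested. Chromosomes other than VI and XII lay between 4.10 and 4.53 in the wild-type mix and between 4.01 and 4.77 in the *hop1-loop2* mix. Enrichment below is therefore the share of ChIP reads over the share of input reads within a genome, so that 1 is the average of that genome.

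**Figure D1:**
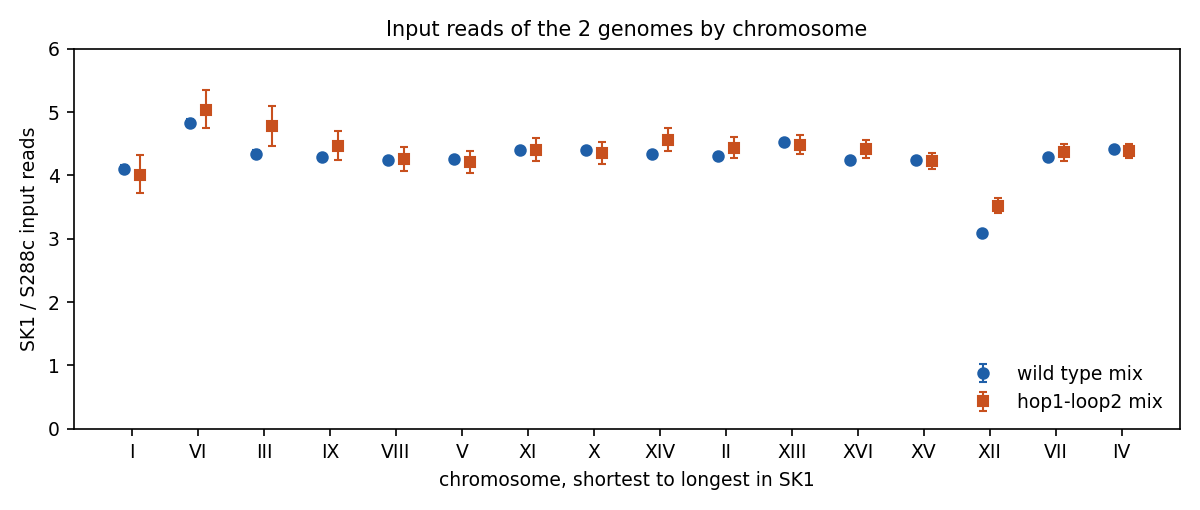
SK1 reads per S288c spike read in the input libraries, by chromosome from shortest to longest in SK1. Circles are the wild-type mix, squares the *hop1-loop2* mix and bars 95% counting intervals; chromosome XII is lowest in both mixes (3.09 and 3.52) and chromosome VI highest (4.83 and 5.04).

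In wild-type SK1 cells, Hop1 was concentrated on the 3 shortest chromosomes, I, VI and III. Together they held 6.74% of SK1 input reads and 10.4% of SK1 ChIP reads, which put their enrichment at 1.60 times that of the other 13 (95% counting interval 1.59 to 1.61). Chromosome I had 91789 ChIP reads and 70026 input reads, an enrichment of 1.79 (1.78 to 1.81). Chromosome VI stood at 1.49 (1.48 to 1.50), from 143127 ChIP reads and 131412 input reads. Chromosome III stood at 1.43 (1.42 to 1.44), from 105080 and 100756 reads. After these came a gap: the next highest was chromosome VIII at 1.07, and the 13 longer chromosomes spanned 0.907 to 1.07. Chromosome IV, the longest, was the lowest of all with 389162 ChIP reads, 586823 input reads and an enrichment of 0.907. Chromosome XII was close to the average at 0.978.

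The spike cells in the same tube had the same order at the top and bottom. In the wild-type mix their short to long ratio was 1.87 (1.84 to 1.89), with 2.05 on chromosome I (19662 ChIP and 17071 input reads), 1.68 on VI (25631 and 27229 reads) and 1.67 on III (21765 and 23200 reads). Chromosome IV was again lowest at 0.879, and chromosome XII stood at 1.01. Unmutated Hop1 was therefore measured in 2 strains at once, and the spike ratio exceeded that of wild-type SK1 by 1.16-fold (1.15 to 1.18). Per chromosome, the spike was 1.14 times as enriched as SK1 on I, 1.17 times on III, 1.12 times on VI and 1.11 times on IX, a chromosome that was below average in SK1 (0.962) and above it in the spike (1.07). The lowest such ratio was 0.898, on XIV. Strain and assembly differ together between these genomes, and the meiotic hour of the spike cells, not given, may differ too. Their parts cannot be told apart.

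The *hop1-loop2* cells lost most of this concentration. Their short to long ratio was 1.17 (1.15 to 1.19), so that 27.9% of the wild-type excess over 1 was left, or 16.7% from ChIP reads per length with no input. The shares of chromosomes I, III and VI were 6.71% of SK1 input reads and 7.75% of SK1 ChIP reads. Chromosome I was still the highest at 1.30 (1.26 to 1.35), from 96385 ChIP reads and 3310 input reads. Chromosome VI followed at 1.15 (1.12 to 1.18), from 170796 and 6647 reads. Chromosome III fell back among the long chromosomes at 1.06 (1.04 to 1.09), from 123454 and 5194 reads, and could not be separated by counting error from chromosome VIII at 1.06 (1.04 to 1.08). The lowest chromosome was no longer IV (1.02, from 683059 and 30057 reads) but XII, at 0.899 (350888 and 17485 reads). The span from highest to lowest chromosome narrowed from 1.98-fold in wild type to 1.45-fold.

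**Figure D2:**
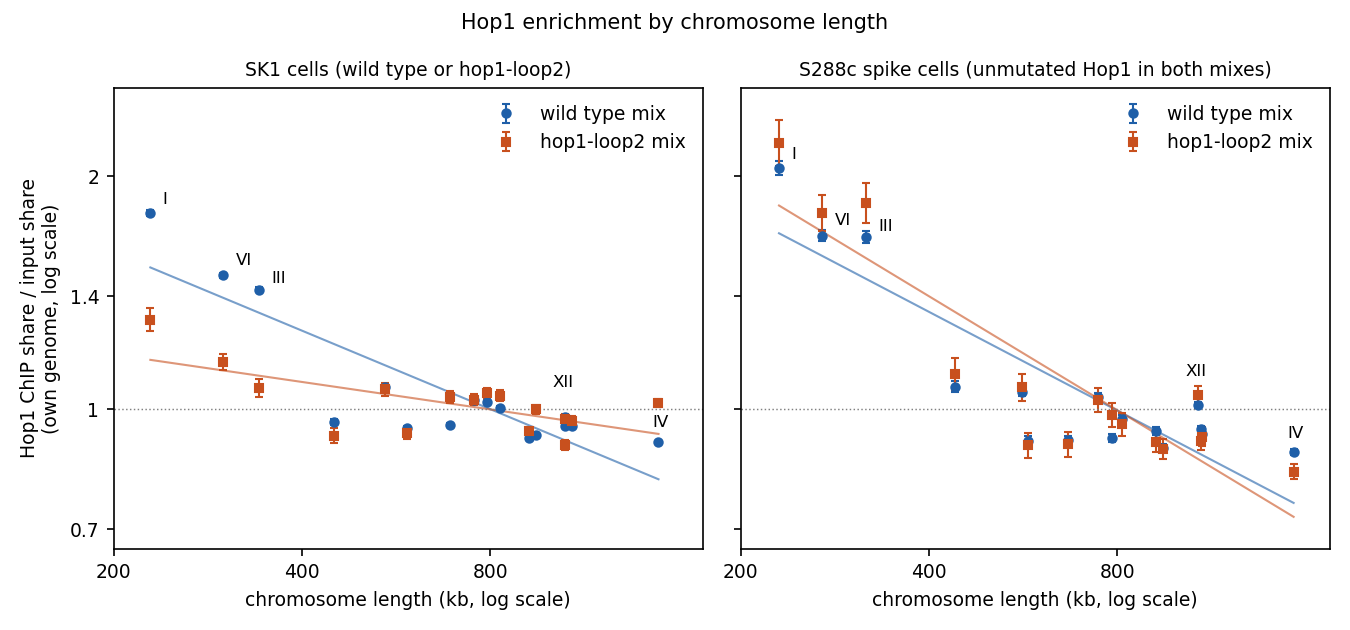
Hop1 enrichment (ChIP share over input share, log scale) against chromosome length (kb, log scale) for the SK1 genome on the left and the S288c spike genome on the right, with 1 point per chromosome, 95% counting intervals and least-squares lines. In SK1 the *hop1-loop2* points on chromosomes I, III and VI sit far below the wild-type points (1.30 against 1.79 on I), whereas the spike points of both mixes lie close together (2.21 and 2.05 on I).

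The spike in the *hop1-loop2* mix kept its concentration on short chromosomes. Its short to long ratio was 2.04 (1.97 to 2.12), with 2.21 on chromosome I (52425 ChIP and 825 input reads), 1.85 on III (57801 and 1088 reads) and 1.79 on VI (68047 and 1319 reads). Chromosome IV stood at 0.830 and XII at 1.04. Both spike profiles were closely correlated, with a Pearson correlation of 0.995 and a Spearman correlation of 0.96 over 16 chromosomes. They were not parallel, since the short to long ratio was 1.87 (1.84 to 1.89) in the wild-type mix. These points share the read lengths, assembly and antibody, and the correlation is given as a description.

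Divided by wild type, enrichment in *hop1-loop2* SK1 cells was 0.727 (0.702 to 0.754) on chromosome I, 0.746 (0.725 to 0.768) on III and 0.772 (0.753 to 0.792) on VI. These were the 3 lowest ratios. The highest was 1.12 (1.11 to 1.13), on chromosome IV, and chromosome XII stood at 0.919 (0.905 to 0.933), the lowest of the 13 longer chromosomes. The others lay between 0.960, on IX, and 1.09, on XI.

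Normal Hop1 in the spike gave the comparison for these ratios. The same quotient in the spike was 1.08 (1.00 to 1.16) on chromosome I, 1.11 (1.04 to 1.18) on III, its highest value, 1.07 (1.01 to 1.13) on VI, 0.944 (0.921 to 0.967) on IV, its lowest, and 1.03 (1.00 to 1.06) on XII. Because shares are taken within a genome, the lower share of chromosomes I, III and VI raised the SK1 ratios of the other 13. Those 13 held 89.6% of SK1 ChIP reads in wild type and 92.3% in *hop1-loop2*. Counting intervals excluded 1 for 7 of 16 spike chromosomes (43.8%) and for 13 of 16 SK1 chromosomes (81.2%), the SK1 count including this rise. Libraries with the same unmutated Hop1 thus differed by more than counting error on many chromosomes, and the width of a counting interval understates the variation between mixes. The standard deviation of the log2 ratio over 16 chromosomes was 0.07 in the spike and 0.19 in SK1. Measured against the largest spike departure (log2 0.15), 4 SK1 chromosomes lay further from 1: I (log2 -0.46), III (-0.42), VI (-0.37) and, by a small margin, IV (0.17). The value of IV includes the rise in share of the longer chromosomes and was not separated from it.

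On the short chromosomes the SK1 and spike quotients moved in opposite directions. The short to long ratio of *hop1-loop2* over wild type was 0.729 (0.717 to 0.742) in SK1 and 1.09 (1.05 to 1.14) in the spike. Dividing SK1 by spike gave 0.667 (0.640 to 0.695) for the short to long ratio, with 0.675 on chromosome I, 0.675 on III, 0.722 on VI, 0.893 on XII and 1.19 on IV. With the inputs of both mixes summed and used for both genotypes, the spike quotient was 1.06 and the SK1 quotient 0.726. A shared input cancels in these quotients, so they rest on ChIP reads alone. The share of chromosome I in SK1 input was 0.938 times as large in the *hop1-loop2* mix as in the wild-type mix (0.906 to 0.971), and that of XII in spike input 0.892 times (0.868 to 0.916). Their part in the ratios of these chromosomes was not tested.

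**Figure D3:**
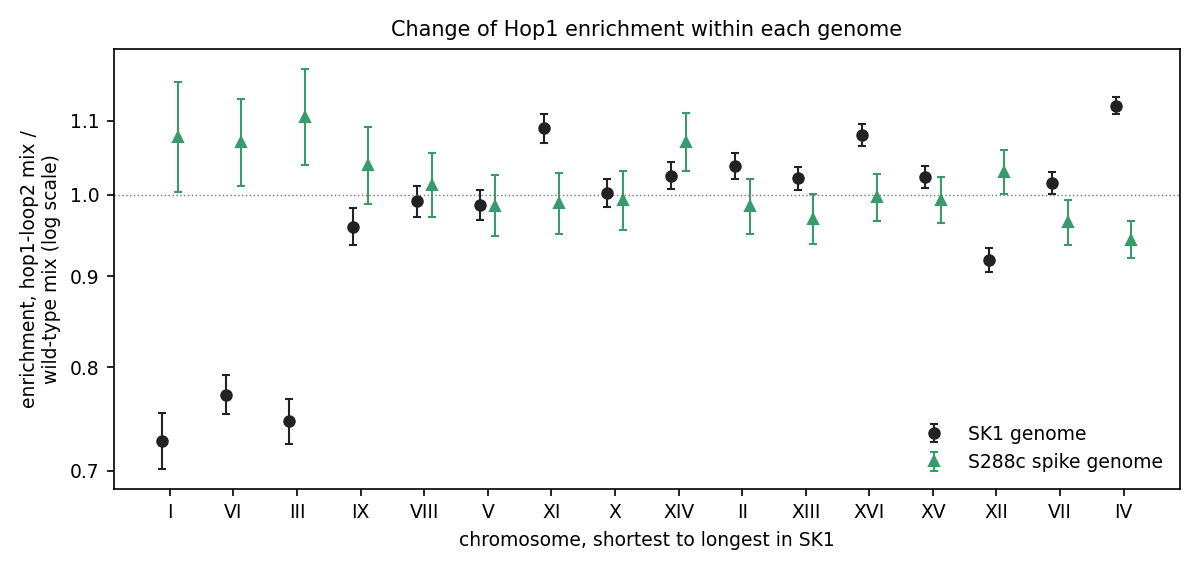
Enrichment in the *hop1-loop2* mix over that in the wild-type mix (log scale) for each chromosome, ordered by length in SK1. Circles are SK1, triangles the spike and bars 95% counting intervals; chromosomes I, VI and III lie at 0.727, 0.772 and 0.746 in SK1 and at 1.08, 1.07 and 1.11 in the spike.

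The spike also put the SK1 chromosomes on a common scale, on which 1 is the genome average of the spike in the same tube. Wild-type SK1 cells stood at 1.30 over the genome (1.30 to 1.31) and *hop1-loop2* cells at 0.776 (0.768 to 0.783). On this scale chromosome I fell from 2.33 to 1.01, chromosome VI from 1.94 to 0.893 and chromosome III from 1.86 to 0.826. Chromosome IV fell from 1.18 to 0.790, and XII from 1.27 to 0.698. All 16 chromosomes were lower in the mutant, and the highest mutant level, 1.01 on chromosome I, was below the lowest wild-type level, 1.18 on chromosome IV. Each level is the enrichment within SK1 multiplied by the genome value of its mix. The 16 falls therefore share the same genome values and are not separate observations. Within SK1, 9 of 16 enrichment ratios were above 1, which includes the rise in share that the fall of I, III and VI brings to the others. In percent of wild type, the level was 43.4% on chromosome I (41.8% to 45.0%), 44.5% on III (43.2% to 45.9%), 46.1% on VI (44.8% to 47.3%) and 66.9% on IV (65.9% to 67.9%). The 13 longer chromosomes held 54.8% or more, with the minimum on XII. In bulk chromatin, fewer cells with Hop1 on their chromosomes and less Hop1 per cell cannot be told apart.

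**Figure D4:**
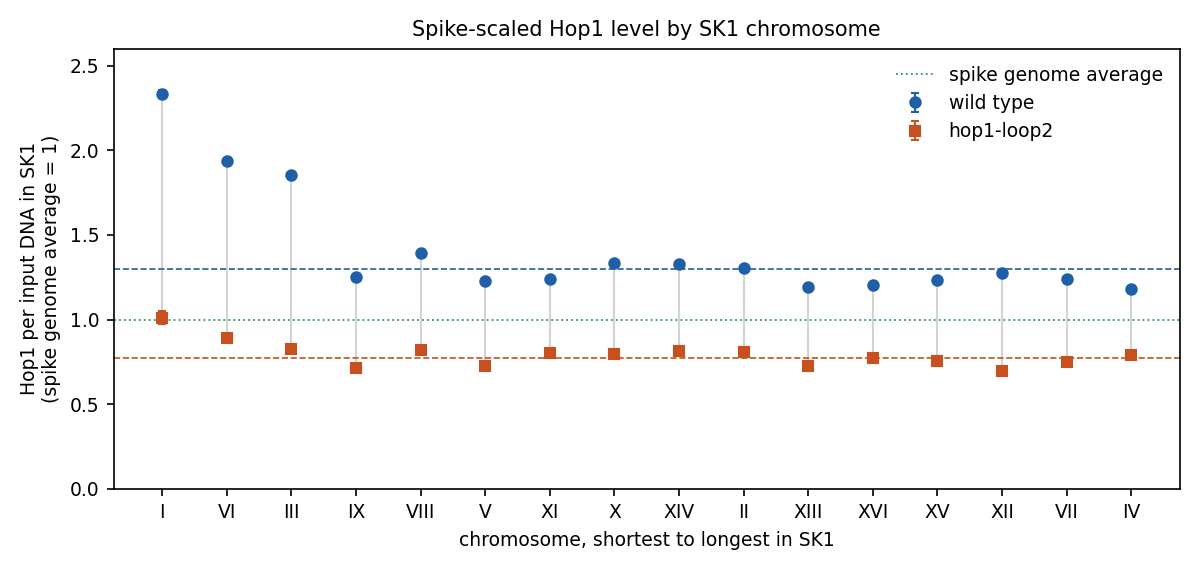
Spike-scaled Hop1 level of each SK1 chromosome (Hop1 per input DNA, spike genome average of 1) in wild type (circles) and *hop1-loop2* (squares), ordered by length, with 95% counting intervals and dashed lines at the genome averages of 1.30 and 0.776. The mutant level on chromosome I, 1.01, is below every wild-type level.

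Summed as signal, chromosomes I, III and VI made up 10.4% of wild-type Hop1 signal and 14.3% of the signal lost. Chromosome I accounted for 2.80% of the wild-type signal, 1.56% of the input and 4.12% of the loss. Chromosome IV held 11.9% of the wild-type signal, 13.1% of the input and 9.40% of the loss. Most of the loss, 85.7%, therefore came from the 13 longer chromosomes, which held 93.3% of the input.

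Against chromosome length, log2 enrichment declined by 0.34 per doubling of length in wild-type SK1 (counting interval of the slope -0.34 to -0.33). The Pearson correlation was -0.87 and the Spearman correlation -0.73 over 16 chromosomes. Slope intervals here leave out the scatter of chromosomes about the line. In *hop1-loop2* the slope was -0.12 (-0.13 to -0.11), with correlations of -0.67 and -0.57. That slope was -0.031 from ChIP reads per length with no input, and -0.27 in wild type. The spike had slopes of -0.42 (-0.43 to -0.42) in the wild-type mix and -0.49 (-0.51 to -0.46) in the *hop1-loop2* mix. Each slope rested largely on the 3 short chromosomes. Over the other 13, it was -0.07 in wild-type SK1, -0.003 in *hop1-loop2* (-0.02 to 0.01), -0.11 in the spike of the wild-type mix and -0.16 in that of the *hop1-loop2* mix. Chromosomes of 1 genome share their library and are not replicates, so these correlations are descriptions.

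The order among the 13 longer chromosomes was similar for unmutated Hop1 in its 2 backgrounds. Enrichment over these 13 had a Pearson correlation of 0.65 between wild-type SK1 and its spike, and 0.94 between the spikes of both mixes. The correlation was 0.49 between wild-type and *hop1-loop2* SK1 cells and -0.11 between *hop1-loop2* SK1 cells and their spike. Log2 enrichment over the 13 had a standard deviation of 0.07 among wild-type and 0.08 among *hop1-loop2* chromosomes, so the longer chromosomes were about equally uneven in both genotypes. Chromosomes XI and XVI were below average in wild type (0.953 and 0.926) and at or above it in *hop1-loop2* (1.04 and 1.00), while both were below it in each spike measurement (0.911 and 0.891 in the wild-type mix, 0.901 and 0.888 in the *hop1-loop2* mix).

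Base composition varied along with length. In the S288C reference R64, GC content was highest on chromosome I at 39.3% and lowest on IV at 37.9%, but VI (38.7%) and III (38.5%) did not stand apart from IX (38.9%), XIV (38.6%) and V (38.5%). Coding sequence covered 61.3% of I, the lowest share, followed by 67.9% of VI, 68.1% of V and 69.0% of III. GC content had a Pearson correlation of -0.76 with the log2 ratio of *hop1-loop2* over wild type over 16 chromosomes, and -0.74 over the 13 longer ones. Log2 length had correlations with the same ratio of 0.85 and 0.42. For the spike ratio between mixes, the correlations with log2 length were -0.78 and -0.50, of opposite sign though Hop1 was unmutated. GC content and log2 length were themselves correlated at -0.84 and -0.76, and their parts in the SK1 ratio were not tested.

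DSB maps gave an independent readout of the same SK1 chromosomes. Covalent-complex sequencing (CC-seq) maps the DNA ends to which the break-forming protein Spo11 stays bound in *rad50S* cells, here at 6 h in 2 replicates each of *rad50S* and *rad50S hop1-loop2*. The *rad50S* diploid was homozygous for rad50S::URA3, ho::hisG, leu2::hisG and a *ura3* deletion, heterozygous for his3::hisG and trp1::hisG, and homozygous for HIS4::LEU2-(NBam;ori), a recombination hotspot construct on chromosome III. The full genotype of the *rad50S hop1-loop2* diploid is not given in the sources used here. Chromosome I took 2.42% and 2.15% of hits in *rad50S* and 0.824% and 0.909% in the mutant. Chromosome VI took 3.35% and 3.13% in *rad50S* and 1.87% and 1.87% in the mutant. On both, the groups were well apart. Chromosome III took 2.26% and 1.89% in *rad50S* and 1.98% and 1.86% in the mutant, and here the groups overlapped. Chromosome IV rose from 13.3% and 13.7% to 14.7% and 14.8%. With 2 against 2 libraries, an exact two-sided permutation test cannot go below 0.333.

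Relative to length, the short to long ratio of DSB hits was 1.06 ± 0.091 (SD, n = 2) in *rad50S* and 0.629 ± 0.0031 (SD, n = 2) in *rad50S hop1-loop2*, a quotient of 0.593. The mutant share over the *rad50S* share was 0.379 on chromosome I, 0.577 on VI and 0.924 on III, against Hop1 ratios of 0.727, 0.772 and 0.746. Chromosome III thus had a Hop1 ratio like those of I and VI and a DSB ratio like those of longer chromosomes, which spanned 0.909, on XII, to 1.13, on V. The part of the hotspot construct in the values of chromosome III was not tested. Without chromosome III the DSB quotient was 0.480, and without chromosome I it was 0.690. Over 16 chromosomes the log2 ratios of Hop1 and DSB share had a Pearson correlation of 0.80 and a Spearman correlation of 0.68, and without chromosomes I, III and VI these were 0.51 and 0.46. Both measures are relative to the genome, the strains and times differ, and the total number of DSBs is not measured by shares.

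DSB density in *rad50S* cells and wild-type Hop1 enrichment were taken over unlike bases, length and input reads. Wild-type SK1 input reads per kb ran from 296 on III to 439 on VI. The orders of chromosomes can therefore not be compared directly. Density, the share of hits over the share of length, was 1.20 on chromosome I and 1.31 on VI, the highest values, but 0.734 on III. A lower density than on III was seen on XII alone, at 0.667. On these unlike bases, the Pearson correlation of log2 Hop1 enrichment with log2 DSB density was 0.21 and the Spearman correlation -0.06 over 16 chromosomes.

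**Figure D5:**
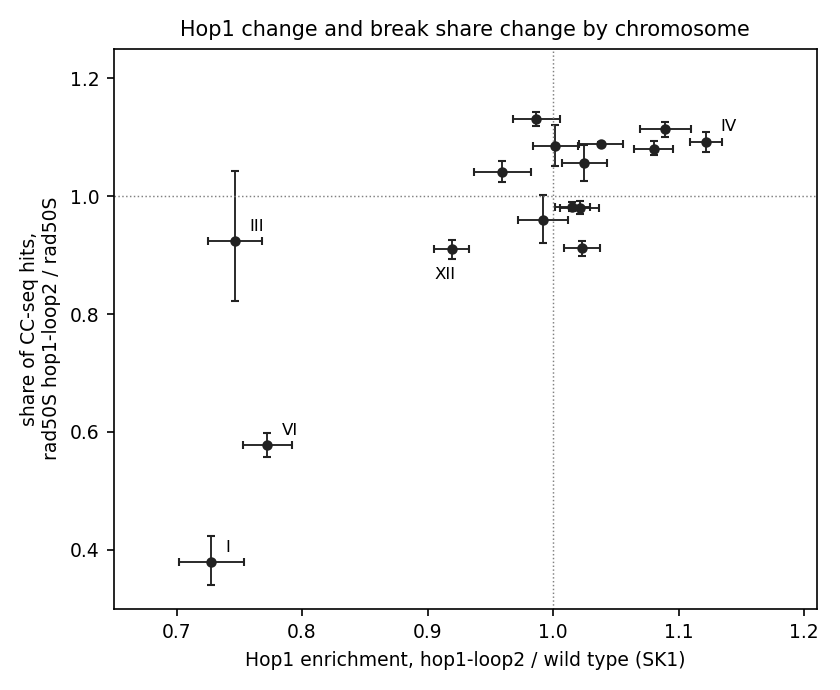
Share of CC-seq hits in *rad50S hop1-loop2* over *rad50S* (bars, lowest to highest ratio between single libraries) against the Hop1 enrichment ratio of *hop1-loop2* over wild type in SK1 (bars, 95% counting intervals), with 1 point per chromosome. Chromosomes I and VI are low on both axes, and chromosome III is low in Hop1 (0.746) but not in DSB share (0.924).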

How the data were processed

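Samples were grouped by title, because the labels' genotype field names a Hop1 domain deletion for every sample used here, those titled wild type and *rad50S* included. The titles number 2 wild-type SNP-ChIP sets as replicate 2, and the set with count files here was used. The authors mapped reads with Bowtie to a concatenation of both genomes, retained those without mismatches and deposited raw read counts per chromosome, and the unnamed last row of each file held 0 reads. For CC-seq, the authors deposited HpM values (scaled hits, an RPM unit) per position and strand, mapped to an SK1 assembly with Bowtie2 through TermMapper. In every library 100% of HpM values were whole multiples of 1 hit (tolerance 0.001), and the totals were 6277735 to 7985420 hits.

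Enrichment, ratios and 95% intervals (delta method on log counts) were computed with Python 3.11.15, numpy 2.4.6, pandas 2.3.3 and scipy 1.17.1. Interval coverage was checked only on simulated counts that carried the counting error the intervals assume. In the *hop1-loop2* mix, the width of the intervals came mainly from the input. In the wild-type mix, ChIP reads were fewer than input reads over each genome. No test was run on recovered hits, since hits were summed per chromosome and given as shares. SK1 lengths are the last CC-seq position per chromosome, and spike lengths, GC content, coding share and the *HOP1* codons come from RefSeq R64, which may differ from the S288c assembly of the files. All 16 chromosomes are accounted for, with full values for I, III, VI, IV and XII and for the highest and lowest ratios. The chromosomes, measures and alternatives were chosen with earlier results of these data known. Other SNP-ChIP sets, ChIP-seq profiles and *pch2* CC-seq were not used here.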

Additional observations from a re-analysis of the deposited data

Results flagged for a closer look

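The change of the short to long chromosome ratio between mixes had opposite directions in the genomes of the same tubes, at 0.729 in SK1 and 1.09 in the S288c spike. With 1 library set per genotype used here, this difference was not tested.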

How the results depend on the processing

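No alternative turned a direction. Without chromosomes I, III and VI, however, counting error did not resolve the sign of the *hop1-loop2* SK1 slope (-0.0027, interval -0.018 to 0.013). Of 63 values under alternatives, 33 stayed within the counting interval of the reported value (DSB ratio, within 1 SD) and 30 moved beyond it. The SK1 change over spike change of the short to long ratio was 0.667, and 0.647 to 0.682 under every alternative tried. For this quotient, summed inputs and no input both gave 0.682, because a denominator shared by both mixes cancels. They are counted separately above but are not separate checks. Ratios of short to long chromosomes for wild-type SK1, *hop1-loop2* SK1, the spike of the wild-type mix and that of the *hop1-loop2* mix were, in this order, 1.49, 1.08, 1.74 and 1.85 from ChIP reads per length with no input, and 1.52, 1.13, 1.76 and 1.93 without chromosome I. Without chromosome III they were 1.66, 1.22 and 1.92 for all but the last, and without chromosome VI 1.64, 1.93 and 2.13 for all but *hop1-loop2* SK1. The wild-type SK1 ratio was 1.61 as a geometric mean over chromosomes.

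Length slopes, in the same order of libraries, were -0.27, -0.031, -0.36 and -0.41 with no input, and -0.072, -0.0027, -0.11 and -0.16 without chromosomes I, III and VI. In wild-type SK1 and its spike they were -0.32 and -0.44 with chromosome lengths of the other genome, and -0.35 and -0.44 without chromosome XII. The *hop1-loop2* SK1 slope was -0.10 with summed inputs. The DSB quotient was 0.559 to 0.631 when single libraries were left out, and 0.690 without chromosome I and 0.480 without III, alternatives chosen after seeing the data. Scaled to spike reads of the same chromosome, 9 of 16 single-chromosome levels moved beyond their counting interval, as did 9 with summed inputs, and I, III and VI were lowest in both. No paired analysis was possible because no result comes from a test and SNP-ChIP had 1 set per genotype; DSB quotients within replicate numbers 1 and 2 were 0.561 and 0.629. The cause of these shifts was not tested. Depth limited the *hop1-loop2* input most, with 825 spike reads on chromosome I.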
